A study of Mus musculus with 10 samples.

Results

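The genes described here are 10 components of the NF-kB system, taken by symbol from a count table of sorted mouse retinal cells: the subunit genes Nfkb1, Rela and Rel of the canonical arm, the subunit genes Nfkb2 and Relb of the non-canonical arm, and the feedback inhibitor genes Nfkbia, Nfkbie, Nfkbiz, Bcl3 and Tnfaip3. Each of the 10 was found once among 21869 gene lines, and each passed the filter on low counts that left 11596 genes for testing. RNA had been sequenced from 5 CD36-positive libraries (numbered 1, 2, 3, 4 and 7) and 5 CD36-negative libraries (numbered 1, 2, 4, 7 and 8) of live retinal cells sorted for CD11b and an intermediate CD45 level, a gate that the labels call microglia and whose samples carry WT in their titles. CD36 is a scavenger receptor that takes up oxidized lipids. The labels' protocol describes mice given saline or 20 mg/kg of sodium iodate, which damages the pigment epithelium under the retina, and eyes taken 7 days later, but it does not say which of these the 10 samples had received. The labels do not say that libraries came from separate animals, so p-values measure the spread between these libraries, which may be technical.

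NF-kB proteins are dimers that wait in the cytoplasm and enter the nucleus when a receptor is engaged. In the canonical arm, the IKK kinase marks inhibitors of the IkB family for destruction and frees dimers built around the RELA and REL proteins. In the non-canonical arm, the kinase NIK leads to processing of the NFKB2 precursor, which then works with RELB; in mice this arm is known for its part in dendritic cell and lymphoid organ development. Several inhibitors are themselves NF-kB targets, so their transcripts rise when the pathway is active and close a feedback loop. In microglia the canonical arm is known for driving transcription of the IL-1β precursor and other cytokines.

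Promoter sequences are shown first because the members differ in whether they carry the DNA motif that NF-kB dimers bind. RefSeq promoters (GRCm38.p6, from 250 bases before to 50 bases after a start site) were listed for 7 of the 10 members, with 10 start sites in all; Nfkb1, Relb and Nfkbiz were not among them. Both strands were searched for the degenerate kB consensus of 10 bases, and matches may overlap each other. It was found at 8 of the 10 start sites, belonging to 6 of the 7 members, while 8.46% of 32851 promoters of the same length held it. At a further Nfkb2 start, not printed here, a match read GGGACTTTCC, the form known from the immunoglobulin kappa enhancer; the window of its last listed start overlaps that one and holds the same copy. The sequences below run 5′ to 3′, and capitals mark bases within a match to the consensus. Nfkb2, Nfkbia and Nfkbie are members that fell in the comparison that follows, Tnfaip3 holds matches and did not pass the test, and Rela is the listed member without one. Relb and Nfkb1 also fell but had no promoter listed, and a link between the motif and the change of a member was not tested.
Nfkb2, first start (chr19:46304487-46304786, plus strand): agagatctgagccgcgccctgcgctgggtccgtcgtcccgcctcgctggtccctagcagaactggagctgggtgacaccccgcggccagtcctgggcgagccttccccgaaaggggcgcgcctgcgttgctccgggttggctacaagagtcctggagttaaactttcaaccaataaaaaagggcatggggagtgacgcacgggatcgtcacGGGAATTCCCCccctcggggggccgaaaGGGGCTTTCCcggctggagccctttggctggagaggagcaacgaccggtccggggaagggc
Nfkbia (chr12:55492598-55492897, minus strand): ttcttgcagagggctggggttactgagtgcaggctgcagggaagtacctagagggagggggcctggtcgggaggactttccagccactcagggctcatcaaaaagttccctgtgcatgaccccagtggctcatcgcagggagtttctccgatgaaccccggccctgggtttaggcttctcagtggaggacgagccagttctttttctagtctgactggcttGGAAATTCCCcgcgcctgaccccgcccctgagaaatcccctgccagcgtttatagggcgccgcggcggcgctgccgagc
Nfkbie (chr17:45555450-45555749, plus strand): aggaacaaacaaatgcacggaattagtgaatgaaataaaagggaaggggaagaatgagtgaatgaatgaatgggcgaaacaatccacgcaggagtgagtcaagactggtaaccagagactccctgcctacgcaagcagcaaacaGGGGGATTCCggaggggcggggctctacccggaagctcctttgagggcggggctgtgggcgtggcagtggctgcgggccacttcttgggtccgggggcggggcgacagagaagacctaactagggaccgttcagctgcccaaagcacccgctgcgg
Tnfaip3, first start (chr10:19015361-19015660, minus strand): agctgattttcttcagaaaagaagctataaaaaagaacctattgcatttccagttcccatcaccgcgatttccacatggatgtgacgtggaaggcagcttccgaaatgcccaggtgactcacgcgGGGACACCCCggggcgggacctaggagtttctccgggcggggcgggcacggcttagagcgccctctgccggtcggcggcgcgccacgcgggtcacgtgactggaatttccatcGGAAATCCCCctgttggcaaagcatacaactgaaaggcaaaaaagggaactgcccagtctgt
Rela (chr19:5637291-5637590, plus strand): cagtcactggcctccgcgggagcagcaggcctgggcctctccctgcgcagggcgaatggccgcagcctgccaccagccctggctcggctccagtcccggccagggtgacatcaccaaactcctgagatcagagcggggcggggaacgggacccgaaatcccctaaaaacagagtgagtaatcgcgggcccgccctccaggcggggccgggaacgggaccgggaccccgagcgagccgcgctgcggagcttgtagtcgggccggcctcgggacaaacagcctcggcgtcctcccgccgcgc
The Nfkb2 window held 2 separate stretches, the nearer beginning 11 bases before the start, and the Nfkbia window 1 stretch beginning 29 bases before it. A match is a string of letters and does not show that a factor was bound, and Rel and Bcl3, whose values did not pass the test, also held 1 stretch each.

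Total counts per library ran from 5001692 to 13250984, with CD36-positive libraries 1 and 3 the shallowest. Every member had at least 67 counts in every library. Of the 13 microglia markers, all tested, 0 passed in either direction, beside 7.36% of all genes tested. Their sum ran from 8987 to 20031 CPM among CD36-positive and from 8614 to 21513 CPM among CD36-negative libraries. CPM stands for counts scaled to the library's total with edgeR's TMM factors.

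Setting CD36-positive against CD36-negative cells shows which NF-kB components differ between these parts of the gate. Of the 10 members, 5 fell in CD36-positive cells and 0 rose (edgeR quasi-likelihood test, Benjamini-Hochberg adjusted p under 0.05 over all genes tested). Across all genes tested, 4.74% were lower, 2.61% higher and 7.36% either by this rule. Those that fell were both non-canonical subunits, Relb and Nfkb2, the canonical subunit Nfkb1, and the inhibitors Nfkbie and Nfkbia. At an unadjusted edgeR p under 0.05, 7 members were lower and 1 was higher. That cut takes in far more of all genes than the adjusted one: Rela, at 0.0483, ranked 2438 by p among 11596 genes. The DESeq2 Wald test and limma voom with quality weights each gave 5 members lower and 0 higher. Over all genes, DESeq2 called 861 lower and 614 higher of 14172, and limma voom 607 lower and 324 higher of 11596. The count of members was 4 lower under 14 of 20 alternatives, because Nfkbia, at an edgeR adjusted p of 0.0498, dropped out. The median log2 fold change of the members was -0.63, against 0.02 over all genes tested. In a bulk sample, fewer cells of a type and less RNA per cell cannot be told apart.

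**Figure D1:**
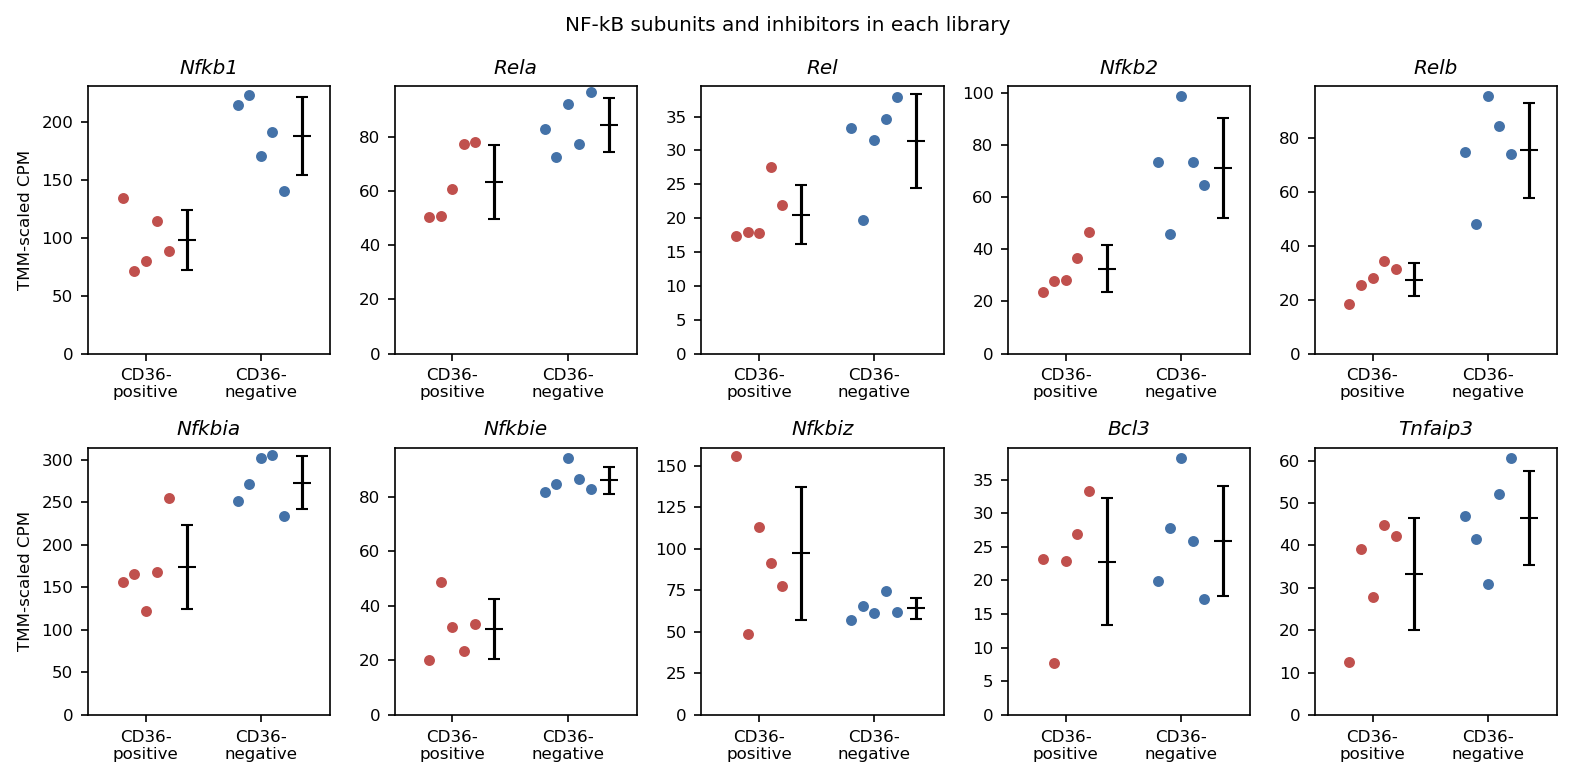
TMM-scaled CPM (vertical axes, starting at 0) of the 10 members in each library, CD36-positive (red) left of CD36-negative (blue), libraries in order of their numbers; black bars give the mean and SD of 5 libraries. The groups are apart for Nfkb1, Relb and Nfkbie and overlap for the other 7 members.

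Relb, the subunit that pairs with processed NFKB2, had the lowest log2 fold change of the members. It was at 18.2, 25.4, 28.1, 34.1 and 31.3 CPM in CD36-positive libraries 1, 2, 3, 4 and 7, against 74.8, 47.8, 95.3, 84.5 and 74.0 CPM in CD36-negative libraries 1, 2, 4, 7 and 8. All CD36-positive libraries lay below all CD36-negative ones, a pattern that 5.83% of genes tested showed (2.59% showed its opposite), and CD36-negative library 2 was the lowest of its group. The log2 fold change was -1.45 (SE 0.23, 95% interval -1.94 to -0.97, edgeR adjusted p = 0.000566). Nfkb2, whose precursor also acts as an inhibitor until it is processed, was at 23.6, 28.0, 28.1, 36.6 and 46.5 CPM in CD36-positive libraries against 73.4, 45.7, 98.9, 73.5 and 64.5 CPM in CD36-negative libraries, in the same order. The groups met at one point, where CD36-positive library 7 stood just above CD36-negative library 2. Nfkb2 had a log2 fold change of -1.12 (SE 0.24, 95% interval -1.63 to -0.61, edgeR adjusted p = 0.00729). Relb lies on chromosome 7 (chr7:19606217-19629438) and Nfkb2 on chromosome 19 (chr19:46304320-46312385) of GRCm38, both annotated as protein coding.

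Of the canonical subunits, 1 of 3 passed the test; all 3 log2 fold changes were negative, their 95% intervals overlapped, and differences between them were not tested. Nfkb1, whose precursor is processed into a subunit without a transactivation domain, was at 135, 71.1, 80.4, 114 and 88.8 CPM in CD36-positive libraries and at 214, 224, 170, 191 and 141 CPM in CD36-negative libraries. The groups did not overlap, although CD36-positive library 1 and CD36-negative library 8 lay close to each other. Nfkb1 (chr3:135584655-135691547) fell by 0.94 on the log2 scale (SE 0.21, 95% interval -1.38 to -0.51, edgeR adjusted p = 0.00790). Rela encodes the transactivating partner in the commonest canonical dimer. It was at 50.6, 50.8, 60.9, 77.5 and 78.1 CPM in CD36-positive libraries against 83.1, 72.9, 92.4, 77.7 and 96.7 CPM in CD36-negative libraries, and the groups overlapped through CD36-positive libraries 4 and 7. It did not pass the test, with a log2 fold change of -0.41 (SE 0.19, 95% interval -0.82 to -0.00, edgeR adjusted p = 0.230). Rel, a subunit best known from lymphocytes and other blood cells, was at 17.3, 17.9, 17.8, 27.6 and 21.9 CPM in CD36-positive libraries against 33.4, 19.7, 31.6, 34.7 and 37.9 CPM in CD36-negative libraries. The overlap came from CD36-negative library 2, which also had the lowest Relb of its group, and Rel did not pass (log2 fold change -0.62, SE 0.25, 95% interval -1.15 to -0.09, edgeR adjusted p = 0.159). Rela is on the same chromosome as Nfkb2 (chr19:5637483-5648130), and Rel lies at chr11:23736847-23770970.

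The contrast between the arms was described and not tested, since it is a score over genes chosen with results known. The mean log2 fold change was -1.29 over Nfkb2 and Relb and -0.66 over Nfkb1, Rela and Rel, a difference of -0.63. Within a library, the mean log2 CPM of the non-canonical subunits minus that of the canonical ones averaged -0.76 ± 0.29 for CD36-positive and -0.14 ± 0.31 for CD36-negative libraries (SD, n = 5 each). The groups overlapped here, since CD36-negative library 2, at -0.55, lay below CD36-positive library 7, at -0.48. Single pairs of subunits gave different pictures. Relb relative to Rela was at -1.21 ± 0.18 in CD36-positive against -0.20 ± 0.30 in CD36-negative libraries on the log2 scale (SD, n = 5 each), with every CD36-positive library lower. Nfkb2 relative to Nfkb1 was at -1.58 ± 0.58 in CD36-positive and -1.42 ± 0.56 in CD36-negative libraries (SD, n = 5 each), and these ranges overlapped over most of their length. Within the canonical arm, Nfkb1 relative to Rela was at 0.61 ± 0.47 in CD36-positive and 1.14 ± 0.43 in CD36-negative libraries (SD, n = 5 each), with overlap. Relb relative to Nfkb2 and Rel relative to Rela overlapped too. How often other gene pairs separate the groups was not counted.

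**Figure D2:**
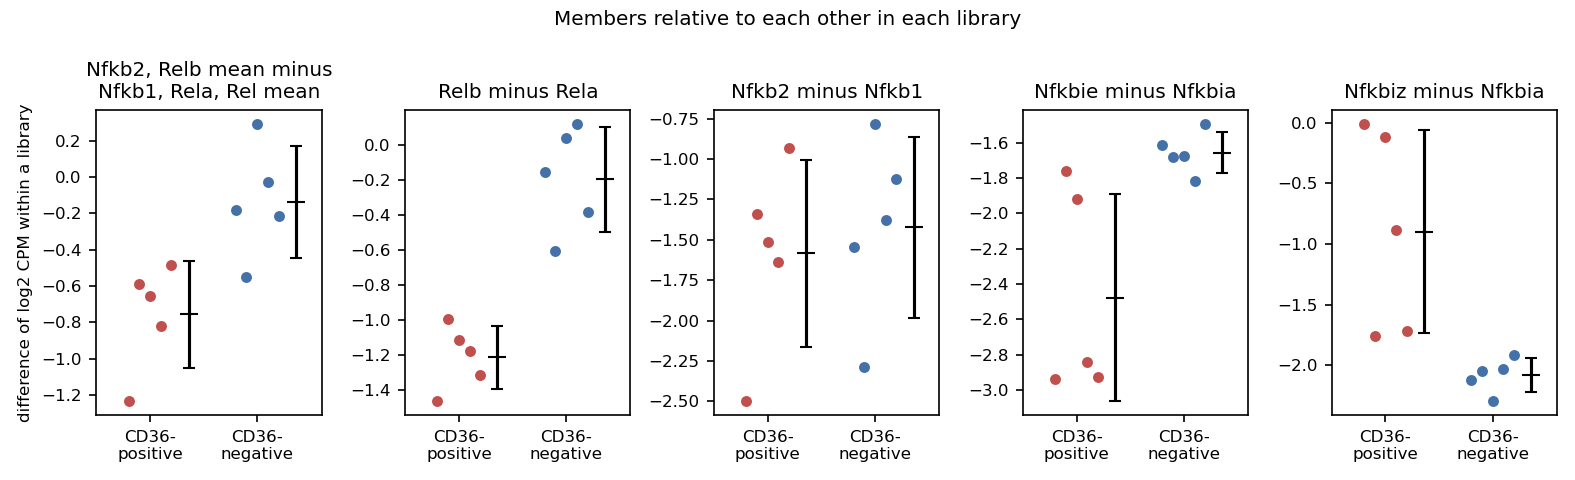
Difference of log2 CPM (prior count 2) between members within each library (vertical axis of each panel), CD36-positive (red) left of CD36-negative (blue), with mean and SD of 5 libraries. Relb minus Rela and Nfkbiz minus Nfkbia separate the groups. Nfkb2 minus Nfkb1, Nfkbie minus Nfkbia and the non-canonical minus the canonical mean overlap between them.

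Per exonic length, Rela was the most abundant subunit transcript in both groups and Rel the least abundant. Levels between genes were compared as CPM per kilobase of the union of annotated exons (GENCODE M21), which counts every annotated transcript and so understates genes with long minor isoforms. The place of Nfkb1 depends on this length, which was 12.06 kilobases for Nfkb1 and 3.07 for Rela. In CPM not divided by length, Nfkb1 stood above Rela. The means were 97.9 against 63.6 CPM in CD36-positive and 188 against 84.6 CPM in CD36-negative libraries. Rela was at 20.7 ± 4.44 CPM per kilobase in CD36-positive and 27.5 ± 3.23 in CD36-negative ones (SD, n = 5 each). Relb was at 7.06 ± 1.57, Nfkb2 at 7.10 ± 1.99 and Nfkb1 at 8.11 ± 2.16 CPM per kilobase in CD36-positive libraries, levels that lay within each other's spread. In CD36-negative libraries Relb was at 19.4 ± 4.53, Nfkb2 at 15.5 ± 4.18 and Nfkb1 at 15.6 ± 2.78 CPM per kilobase (SD, n = 5 each), again within each other's spread. Rel was at 2.75 ± 0.59 CPM per kilobase in CD36-positive and 4.21 ± 0.93 in CD36-negative libraries. Among the inhibitors Nfkbia stood highest on this scale, with 108 ± 30.5 CPM per kilobase in CD36-positive and 170 ± 19.4 in CD36-negative libraries. Nfkbiz followed in CD36-positive libraries (19.4 ± 7.99) and Nfkbie in CD36-negative libraries (28.3 ± 1.64), while Tnfaip3 was lowest in both (medians of 5.41 among CD36-positive and 6.49 among CD36-negative libraries).

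The feedback inhibitors split into 2 that fell and 3 that did not pass. Nfkbie encodes IkBε, a cytoplasmic inhibitor. It was at 20.3, 48.8, 32.2, 23.3 and 33.4 CPM in CD36-positive libraries against 81.8, 84.7, 94.4, 86.5 and 82.7 CPM in CD36-negative libraries. The CD36-negative libraries lay close together and all above the CD36-positive ones. The log2 fold change of Nfkbie (chr17:45555703-45563169) was -1.44 (SE 0.23, 95% interval -1.92 to -0.96, edgeR adjusted p = 0.000566). Nfkbia encodes IkBα, the main cytoplasmic inhibitor and an early NF-kB target. It was at 157, 166, 123, 168 and 255 CPM in CD36-positive libraries against 251, 272, 302, 305 and 234 CPM in CD36-negative libraries, and CD36-positive library 7 lay within the range of the CD36-negative ones. Nfkbia (chr12:55489410-55492647) passed only just, at a log2 fold change of -0.65 (SE 0.19, 95% interval -1.06 to -0.24, edgeR adjusted p = 0.0498). Dropping any single library took the call away in 9 of 10 cases, the exception being CD36-positive library 7, and without CD36-positive libraries 1 and 3 it was at -0.48 (edgeR adjusted p = 0.163).

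Nfkbiz was the only member with a positive log2 fold change. It encodes IkBζ, a nuclear family member that assists transcription of a set of late NF-kB genes as well as restraining others. It was at 156, 48.8, 113, 91.3 and 77.5 CPM in CD36-positive libraries against 57.4, 65.8, 61.2, 74.4 and 61.8 CPM in CD36-negative libraries. CD36-positive library 2 lay below the whole CD36-negative group and the other 4 above it. Nfkbiz (chr16:55811375-55838899) did not pass (log2 fold change 0.60, SE 0.25, 95% interval 0.07 to 1.13, edgeR adjusted p = 0.169), and without CD36-positive library 2 it was at 0.75 and passed (edgeR adjusted p = 0.0483). Without CD36-positive library 1, its highest, it was at 0.35 (edgeR adjusted p = 0.395), and without both CD36-positive libraries 1 and 3 at 0.17 (edgeR adjusted p = 0.744). Relative to Nfkbia within a library, Nfkbiz was at -0.90 ± 0.84 in CD36-positive against -2.08 ± 0.14 in CD36-negative libraries on the log2 scale (SD, n = 5 each), with no overlap. CD36-positive library 2, at -1.76, and CD36-negative library 8, at -1.92, lay close to each other. The ratio also takes in the lower Nfkbia of CD36-positive libraries, so it does not describe Nfkbiz alone.

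Tnfaip3 encodes a ubiquitin-editing enzyme that shuts down signalling above IKK. It was at 12.5, 39.1, 27.8, 44.7 and 42.2 CPM in CD36-positive libraries against 46.9, 41.5, 31.0, 52.1 and 60.7 CPM in CD36-negative libraries. The groups overlapped and CD36-positive library 1 was far below the rest (log2 fold change -0.48, SE 0.30, 95% interval -1.10 to 0.15, edgeR adjusted p = 0.380). Without that library the value was -0.28, and without both CD36-positive libraries 1 and 3 it was -0.15. Bcl3, a nuclear IkB protein that binds dimers of the processed subunits, was at 23.3, 7.68, 22.9, 26.9 and 33.3 CPM in CD36-positive libraries against 19.9, 27.8, 38.2, 25.9 and 17.3 CPM in CD36-negative libraries. It did not pass (log2 fold change -0.18, SE 0.34, 95% interval -0.89 to 0.54, edgeR adjusted p = 0.818), and without CD36-positive library 2, its lowest library, the value was 0.034. Tnfaip3 lies at chr10:19000910-19015657 and Bcl3 at chr7:19808462-19822770, on the same chromosome as Relb.

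**Figure D3:**
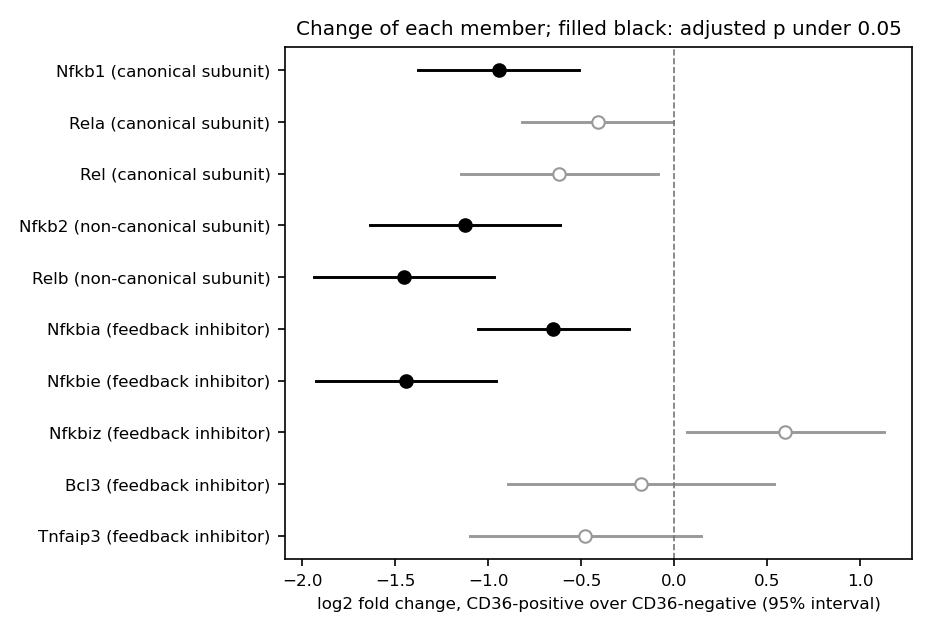
Log2 fold change of each member, CD36-positive over CD36-negative (horizontal axis), with 95% intervals from edgeR; filled black points passed an adjusted p of 0.05. Nfkb1, Nfkb2, Relb, Nfkbia and Nfkbie lie below 0 and passed, and Nfkbiz alone lies above 0.

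Among the members, the profiles most like each other over the 10 libraries were those of Rela and Rel (root mean square difference of centred log2 CPM 0.22) and those of Nfkb2 and Relb (0.23). Among 9262 genes whose average log2 CPM reached 3, those nearest to Relb on this measure were Mxd1 (0.15), Osbpl2 (0.18) and then Nfkb2. Those nearest to Nfkb2 were Nr1h2 (0.17), Junb (0.18) and Tspan3 (0.19). Nfkb1 was nearest to Socs5 (0.18), Zmiz2 (0.19) and Mthfd2 (0.23). Nfkbia was nearest to Chmp2b (0.14), Rogdi (0.15) and Syf2 (0.17). Nfkbie had the most distant neighbours of these 5 members, Pmaip1 (0.25), Unc119b (0.25) and Gsr (0.26). Each gene was centred over all 10 libraries, so the measure includes the difference between the groups. Genes near a member that fell thus share its fall, and the neighbours named had log2 fold changes of -1.56 to -0.65. How near the neighbours of other genes lie was not counted.

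Markers of other leukocytes moved with the members that fell, and their part in the differences was not tested. Many of these markers were near 0 in CD36-positive libraries and passed the filter on low counts only through the CD36-negative group, which fixed their direction, so the counts of markers that fell are descriptions. Over all genes tested, 4.74% were lower and 2.61% higher. Of 10 dendritic cell markers, 9 fell and 0 rose, and their summed level ran from 43.0 to 84.2 CPM among CD36-positive and from 607 to 1225 CPM among CD36-negative libraries. Of 9 tested markers of mature migratory dendritic cells, 8 fell and 0 rose, with sums of 180 to 279 CPM among CD36-positive and 809 to 1126 CPM among CD36-negative libraries. No marker of either dendritic cell list was at 0 throughout a group. The chemokine receptor gene Ccr7 averaged 7.04 CPM among CD36-positive and 208 CPM among CD36-negative libraries, and Flt3, a growth factor receptor gene of dendritic cells, 2.73 against 133 CPM in the same order. Most of what remained of the mature list in CD36-positive libraries was Tmem123, at 179 against 526 CPM. CD36-negative library 2, lowest of its group in Relb and Nfkb2, had a dendritic cell sum of 1108 CPM, the second highest of its group, and a mature dendritic cell sum of 809 CPM, the lowest.

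Other lists differed as well, and their counts are to be read beside 4.74% lower and 2.61% higher over all genes tested. Of 13 neutrophil markers 9 were tested, of which 8 fell and 0 rose, with sums of 84.7 to 194 CPM among CD36-positive and 319 to 861 CPM among CD36-negative libraries. Retnlg, Ly6g, Ngp and G0s2 were at 0 in all CD36-positive libraries, and Csf3r, a receptor gene that did not pass, made up most of the sum there. Of 12 listed T and NK cell markers 5 were tested and all 5 fell, each averaging between 0.16 and 1.26 CPM in CD36-positive libraries, with list sums of 1.24 to 9.71 against 46.0 to 329 CPM in CD36-positive and CD36-negative libraries, and Prf1 was at 0 in all CD36-positive ones. Monocyte markers fell in 8 of 11 and rose in 1, Ms4a4c, with sums of 499 to 982 CPM among CD36-positive and 1098 to 2087 CPM among CD36-negative libraries. Most of the sum in CD36-positive libraries came from Ccr2, which did not pass (413 against 408 CPM on average), and Ms4a4c (263 against 150 CPM). The 8 that fell averaged between 0.53 and 8.18 CPM there. Of 8 tested border macrophage markers 3 rose (Ms4a7, Pf4 and Stab1) and 0 fell, with a median log2 fold change of 0.08. Their sums ran from 1327 to 1619 CPM among CD36-positive and from 558 to 1186 CPM among CD36-negative libraries, and Ms4a7 gave most of that difference (799 against 310 CPM on average, in that order). Cd163 (-3.30), Cbr2 (-1.79) and Folr2 (-1.51) had negative log2 fold changes that did not pass (edgeR adjusted p between 0.0690 and 0.113). The 2 tested B cell markers did not pass, and sums over the list were 19.9 to 34.5 CPM among CD36-positive and 10.9 to 35.3 CPM among CD36-negative libraries. Photoreceptor markers fell in 2 of 10 and overlapped between groups in their sums (115 to 994 CPM among CD36-positive and 399 to 2514 CPM among CD36-negative libraries). Immediate early genes, which tissue dissociation can induce as it can Nfkbia and Nfkbiz, fell in 8 of 11 and rose in 0, with sums of 852 to 1405 CPM among CD36-positive and 1891 to 2660 CPM among CD36-negative libraries.

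**Figure D4:**
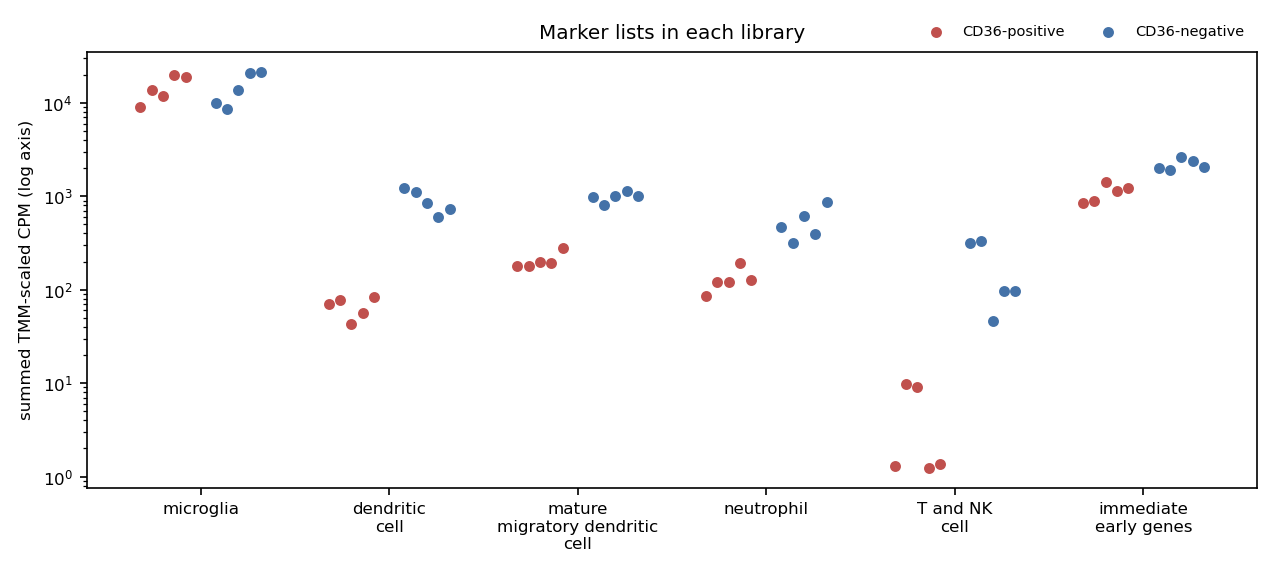
Summed TMM-scaled CPM of 6 marker lists (vertical log axis) in each library, CD36-positive (red) left of CD36-negative (blue), libraries in order of their numbers. The microglia sums overlap between groups, whereas the dendritic cell, mature dendritic cell, neutrophil, T and NK cell and immediate early sums do not.

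The rest of the pathway was read from lists of kinases, adaptors, receptors, other inhibitors and target genes. Of 21 canonical kinase and adaptor genes, 1 fell and 0 rose (median log2 fold change -0.18; 2.61% of all genes tested were higher and 4.74% lower). The one that fell was Ikbkb, which encodes the IKK subunit that phosphorylates IkBα. It was at 77.2, 47.5, 88.4, 61.3 and 93.0 CPM in CD36-positive libraries against 138, 135, 137, 135 and 138 CPM in CD36-negative libraries, without overlap (log2 fold change -0.89, SE 0.19, edgeR adjusted p = 0.00798). The other 20 lay between -0.53 and 0.57. Of 12 non-canonical kinase, adaptor and receptor genes, 1 rose and 2 fell (median -0.14). Map3k14, which encodes the kinase NIK, averaged 27.7 CPM among CD36-positive and 49.5 CPM among CD36-negative libraries (log2 fold change -0.84, SE 0.24, edgeR adjusted p = 0.0422). The groups met at CD36-positive library 7 (36.5 CPM) and CD36-negative library 7 (36.4 CPM), and the call was lost when any 1 of 7 libraries was left out (CD36-positive 1, 2, 3; CD36-negative 1, 2, 4, 8), without both CD36-positive libraries 1 and 3, and under limma voom. Chuk, the gene of the other catalytic IKK subunit, did not pass (-0.17, SE 0.20, edgeR adjusted p = 0.674).

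Of the non-canonical receptor genes, Tnfrsf11a rose and Tnfrsf13c fell, and the others did not pass. Tnfrsf11a encodes RANK, the receptor of osteoclast differentiation, and was at 188, 85.0, 89.5, 110 and 83.6 CPM in CD36-positive libraries against 52.1, 47.0, 66.1, 73.2 and 55.6 CPM in CD36-negative libraries. The groups did not overlap (log2 fold change 0.92, SE 0.24, edgeR adjusted p = 0.0251); the call was lost without CD36-negative library 1, 2, 4 or 8 and without both CD36-positive libraries 1 and 3. Tnfrsf13c, the BAFF receptor gene, had 2 counts over the CD36-positive group and 553 over the CD36-negative group, through which alone it passed the filter. Per total count it was 227 times higher in CD36-negative cells (95% exact binomial counting interval 62.6 to 1881). The other 9 genes of this list lay between -0.58 and 0.54, among them the receptor genes Cd40 (-0.44), Tnfrsf1b (-0.35), Ltbr (0.11) and Tnfrsf12a (0.54).

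Of 14 other inhibitors and deubiquitinases 1 fell and 0 rose (median -0.19), beside 4.74% lower and 2.61% higher over all genes tested. Tnip3, a partner of the Tnfaip3 protein, averaged 4.40 CPM among CD36-positive and 20.6 CPM among CD36-negative libraries without overlap (log2 fold change -2.23, SE 0.38, edgeR adjusted p = 0.00126). Nfkbib, which encodes the remaining classical cytoplasmic inhibitor IkBβ, did not pass (-0.54, SE 0.29, edgeR adjusted p = 0.311), nor did the deubiquitinase gene Cyld (-0.46, SE 0.20, edgeR adjusted p = 0.176).

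Target genes of NF-kB moved both ways: of 21 tested, 2 rose and 5 fell (median -0.19), beside 2.61% higher and 4.74% lower over all genes tested. Traf1, an adaptor gene of TNF receptors, fell most, at 1.86, 2.14, 6.02, 2.37 and 6.89 CPM in CD36-positive libraries against 73.5, 49.7, 69.0, 66.5 and 47.7 CPM in CD36-negative libraries (log2 fold change -3.96, SE 0.37, edgeR adjusted p = 3.05e-06). The acute phase gene Saa3 (-3.12), the chemokine gene Ccl5 (-2.25), the stress gene Gadd45b (-2.06) and the interleukin gene Il1b (-1.53) also fell (log2 fold changes, edgeR adjusted p between 0.00166 and 0.0209); Gadd45b did not pass without CD36-negative library 4 or 7. Ccl2, a monocyte chemoattractant gene, averaged 241 CPM among CD36-positive and 84.9 CPM among CD36-negative libraries and rose (95% interval of the log2 fold change 0.87 to 2.13, edgeR adjusted p = 0.00413). Cxcl10, which is also induced by interferon, averaged 82.5 CPM against 27.2 CPM in the same order and rose (95% interval 0.81 to 2.39, edgeR adjusted p = 0.0129), and without both CD36-positive libraries 1 and 3 it did not pass. The other 14 lay between -0.69 and 2.08. Log2 fold changes were positive for Cxcl2 (2.08), Ccl3 (1.11), Ccl4 (0.94), Il1a (0.65), Tnf (0.58), Vcam1 (0.44) and Bcl2l1 (0.37), which did not pass. Negative ones, which did not pass either, were those of Clec4e (-0.69), Cd83 (-0.36), Icam1 (-0.34), Tnfaip2 (-0.24), Sod2 (-0.19), Irf1 (-0.19) and Ier3 (-0.07). Nos2, too low to be tested, was at 0 in all CD36-positive libraries. Traf1 and Ccl5 are also expressed by lymphocytes and dendritic cells. The T and NK cell, dendritic cell, neutrophil and monocyte sums given above were all lower in CD36-positive libraries. The part of any of these cells in the values of Traf1 and Ccl5 was not tested.

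**Figure D5:**
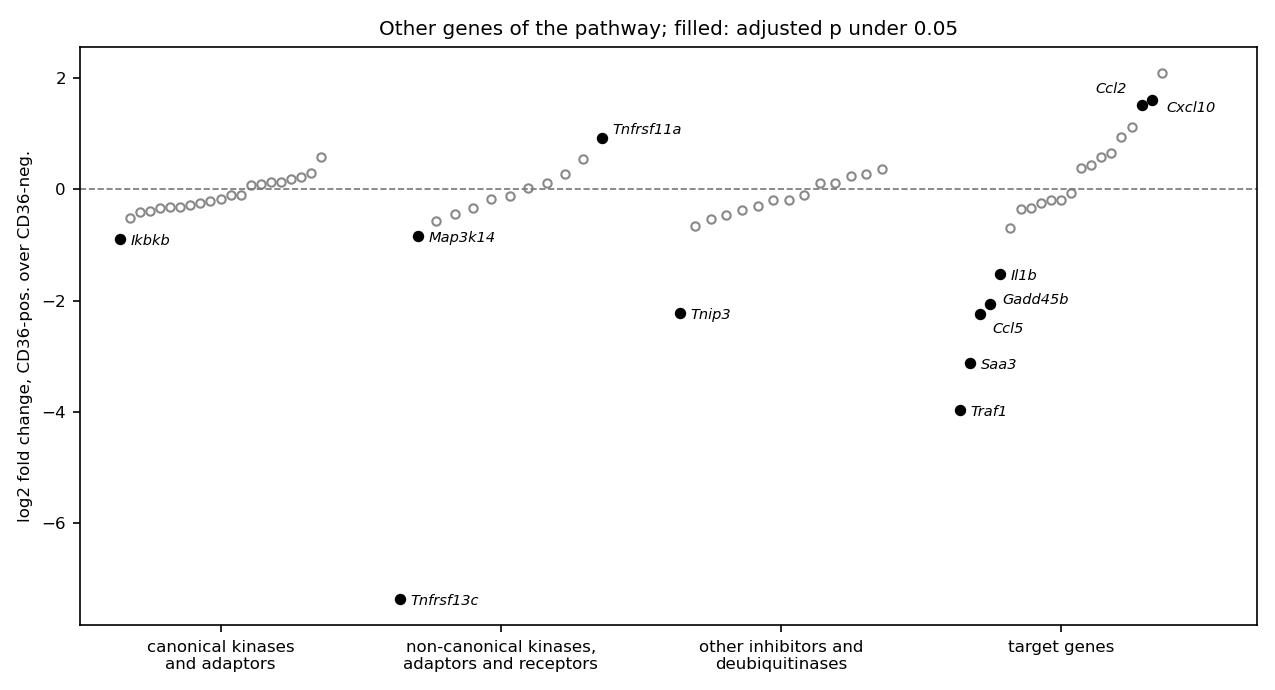
Log2 fold change, CD36-positive over CD36-negative (vertical axis), of the tested genes in 4 lists of other pathway genes; filled points, named, passed an adjusted p of 0.05 in edgeR and open points did not. Of these 12 filled points 3 lie above 0 and 9 below.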

How the data were processed

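RNA was sequenced from 10 libraries of sorted retinal cells. The authors deposited 1 table of expected counts, not normalized, with a row per symbol and a column per library. HISAT2 2.1.0, StringTie 1.3.1, Bowtie2 2.2.8, fastp 0.18.0 and the build mm10 are named in the submitters' processing notes without roles; the program that made the counts, and whether strand was used, are not given in the sources used here. Of 22008 lines, 8 damaged and 131 repeated lines were dropped, none of them a member's. Expected counts were rounded, filtered with filterByExpr (minimum count 10, by group), given TMM factors and tested in edgeR 4.0.16, R 4.3.3 (glmQLFit, glmQLFTest, group only, Benjamini-Hochberg over 11596 genes, threshold 0.05); the procedure was first tested on simulated data. SE is the log2 fold change over the root of the F statistic, and log2 CPM has a prior count of 2. Total counts per library, 5001692 to 13250984, set the counting precision; counting intervals cover counting error only. Within groups, pairs of libraries differed beyond counting noise (chi-square per degree of freedom 22.1 to 109).

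Members, lists and tests were chosen with earlier results of these data known. All members were named, as were pathway genes past the threshold and Ikbkb, Chuk, Map3k14, Nfkbib and Cyld; other genes named (among them Cd40, Ltbr, Ccr7, Flt3, Tmem123, Csf3r, Ms4a4c, Ms4a7, Cd163, Tnfrsf1b and Tnfrsf12a) were chosen after their values were seen. Groups and replicate numbers follow the description label. Alternatives were DESeq2 1.42.0 size factors and Wald test, upper quartile scaling, limma 3.58.1 voom, other filters, replicate blocks, left-out libraries and an adjusted p of 0.01. The T cell marker Trac and the B cell marker Ighm were not analysed here. The kB consensus was chosen after a looser motif, which many promoters held, had been searched. Promoters are RefSeq's and gene positions GENCODE M21's, both on GRCm38.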

Additional observations from a re-analysis of the deposited data

How the results depend on the processing

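Of the members, Nfkb1, Nfkb2, Relb and Nfkbie kept their direction and call under all 20 alternatives (log2 fold changes of -1.10 to -0.86, -1.29 to -0.95, -1.58 to -1.32 and -1.67 to -1.30), and Rela, Rel and Tnfaip3 stayed short of the threshold. Nfkbia lost its call under 14 of 20, at -0.66 with no filter, -0.62 with the description numbers as a replicate block, -0.69 with the title numbers and -0.48 without CD36-positive libraries 1 and 3. Bcl3 ran from -0.36 to 0.034 with 1 library left out, turning positive without CD36-positive replicate 2, where Nfkbiz passed; members called higher thus ran from 0 to 1 with 1 library left out. The non-canonical minus canonical difference ran from -0.72 to -0.51.

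Pathway genes called higher, 3 in all, numbered 6 with no filter, 5 with the DESeq2 Wald test, 1 without CD36-positive libraries 1 and 3, 1 at an adjusted p of 0.01, and 2 to 5 with 1 library left out. The number of all genes called higher moved too, from 303 of 11596 to 389 of 19796 with no filter and 614 of 14172 with DESeq2. It was 188 of 12117 without CD36-positive libraries 1 and 3, 90 of 11596 at 0.01, and 132 to 380 with 1 library left out. Pathway genes called lower, 9, ran from 7 to 10, while all genes called lower, 550, ran from 330 to 861. Scaling moved the median log2 fold change of all genes by under 0.1.

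Same-numbered libraries correlated in their deviations at 0.03 to 0.13 over 4 shared description numbers, and 6 of 8 libraries correlated best with their own number. Each had only 4 libraries of the other group to choose from. Choices from either side use the same correlations and are not independent, and correlations between unlike numbers are not given here. The labels do not say that a number pairs libraries. With the description numbers as replicate block 4 members fell, Tnfrsf11a and Map3k14 did not pass, and with the title numbers as block Map3k14 did not pass. Tnfrsf13c rests on 2 counts among CD36-positive libraries.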

Other observations

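Nfkbie and Nfkbiz were spread more widely in CD36-positive than in CD36-negative libraries, with coefficients of variation of 35.2% against 5.82% for Nfkbie and 41.2% against 10.1% for Nfkbiz in that order. Of the 10 members 8 had the higher coefficient of variation in CD36-positive libraries, as had 72.0% of all genes tested, so the count is near the background. Ikbkb ran from 47.5 to 93.0 CPM among CD36-positive and from 134.9 to 137.6 CPM among CD36-negative libraries. At 1297 to 1647 counts per CD36-negative library, the latter range is narrower than counting error alone would usually give. It was picked out after the values were seen. Total counts ran from 5001692 to 13250984 among CD36-positive and from 9361263 to 12138472 among CD36-negative libraries. The cause of the wider spread in CD36-positive libraries was not tested.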
